A study of Homo sapiens with 10 samples.

Results

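Whole transcriptome profiles of spheroids labelled T47D, a human breast cancer cell line, came from numbered experiments, and here experiments 15 and 16 were compared with experiments 10 and 11. The comparison used 8 of the 10 libraries of the series. They were 2 wild-type (WT) and 2 clone A1 libraries on each side, taken by the experiment number in their labels, and genotype (WT or clone A1) entered the test as a block. WT was the parental line, and clone A1 was 1 SAMHD1-knockout (KO) clone made with CRISPR-Cas9. All spheroids were grown for 4 days, and the labels give no treatment. Clone A2, the other KO clone, has no library of experiments 10 and 11, so its 2 libraries of experiments 15 and 16 stayed outside every test and are given only as values. The labels do not say what differed between the experiment pairs, and the methods describe biological duplicates without saying how cultures were divided between experiments, so p-values measure the spread between these libraries, which may be technical. Experiments 15 and 16 are called later and experiments 10 and 11 earlier by their numbers alone, since no dates are given.

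Spheroids are balls of cells in which oxygen and nutrients fall off toward the centre and cells press on each other rather than on stiff plastic. Cells answer such conditions through a few well known programmes. Low oxygen is read by hypoxia-inducible factors (HIF), a load of unfolded protein in the endoplasmic reticulum by the unfolded protein response, and tension on the actin skeleton by YAP with its TEAD partners and by serum response factor (SRF). Growth factor and stress signals are read within minutes by the immediate early genes, among them FOS and EGR1.

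Library totals were between 40077369 and 51311482 counts, and the later libraries spanned the whole of that range. Transcripts of the mitochondrial genome made up 7.79% to 8.48% of the counts in the 4 earlier libraries and 9.92% to 13.9% in the 4 later ones. Of 9 luminal markers expected of T47D, 8 were among the listed genes, with a summed level of 108 to 130 counts per 1000000 counts (CPM) in the earlier and 106 to 115 CPM in the later libraries. The levels of these markers differed widely. ESR1, the estrogen receptor, lay between 0.183 and 1.59 CPM, the epithelial cadherin CDH1 between 0.684 and 2.16 CPM and the epithelial adhesion molecule EPCAM between 0.348 and 1.70 CPM, all 3 near 0 in every library. The luminal factors GATA3 and FOXA1 were at 17.8 to 24.8 CPM and 14.1 to 26.8 CPM, the progesterone receptor PGR at 17 to 20.7 CPM, and the keratins KRT8 and KRT18 at 4.04 to 9.07 CPM and 36.3 to 60.3 CPM. KRT19, the remaining luminal marker, was not among the listed genes. The mesenchymal genes VIM and CDH2 were at 1216 to 1518 CPM and 118 to 158 CPM, above each listed luminal marker. ESR1, CDH1 and EPCAM thus went against the label, and the other listed luminal markers reached at most 60.3 CPM. The cells are called here only by the label they carry. Of 21 markers of immune, endothelial, stromal, basal and hepatic cells, 7 were listed, with a summed level of 26.9 to 36.3 CPM in the earlier and 21.3 to 29.4 CPM in the later libraries, and their part in the results below was not tested.

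SAMHD1, the targeted dNTP hydrolase, checks the genotype labels. Its level in WT was 53.9 and 55.7 CPM in experiments 10 and 11 and 49.8 and 56.4 CPM in experiments 15 and 16. In clone A1 it was 22.5 and 23 CPM in experiments 10 and 11 and 6.44 and 6.15 CPM in experiments 15 and 16. Both clone A1 pairs were thus below WT, and the later pair was well below the earlier pair of the same clone. The log2 difference between pairs was −0.04 ± 0.08 (SE) in WT and −1.85 ± 0.10 in clone A1, and these differed from each other by −1.81 ± 0.13 (edgeR adjusted p = 1.22e-06). Every comparison below that includes clone A1 carries this difference in SAMHD1 between its earlier and later libraries.

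Between the experiment pairs, 5556 of 13920 genes (39.9%) changed at an adjusted p below 0.05 in edgeR's quasi-likelihood test. Of these, 2840 (20.4% of all genes) were higher and 2716 (19.5%) were lower in experiments 15 and 16. The changes were mostly small. The median absolute log2 difference of called genes was 0.331, 1420 called genes changed by over 0.5 and 357 by over 1, and of the last 253 were higher and 104 lower. In 4276 of the called genes (77%) the 4 later libraries did not overlap the 4 earlier ones, against 34.1% of all genes tested. The median over all genes was 0.007, which the scaling of the libraries keeps near 0, so every difference is relative to the bulk of genes. These are bulk libraries, in which fewer cells of a type and less RNA per cell cannot be told apart.

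The first principal component of log2 CPM held 57.0% of the variance and separated the experiment pairs. All 4 earlier libraries had scores between −23.4 and −18.1, the later WT libraries 9.33 and 9.99, and the later clone A1 libraries 34.4 and 33.0. Genotype did not order the earlier libraries on this axis. As a distance between libraries, the root mean square difference in log2 CPM had a median of 0.255 for libraries of the same genotype and pair, 0.332 for the other genotype in the same pair and, for the same genotype in the other pair, 0.337 to 0.402 in WT and 0.509 to 0.538 in clone A1. The range for the other genotype in the same pair was 0.263 to 0.349, so the WT distances between pairs lay little above it and overlapped it.

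**Figure D1:**
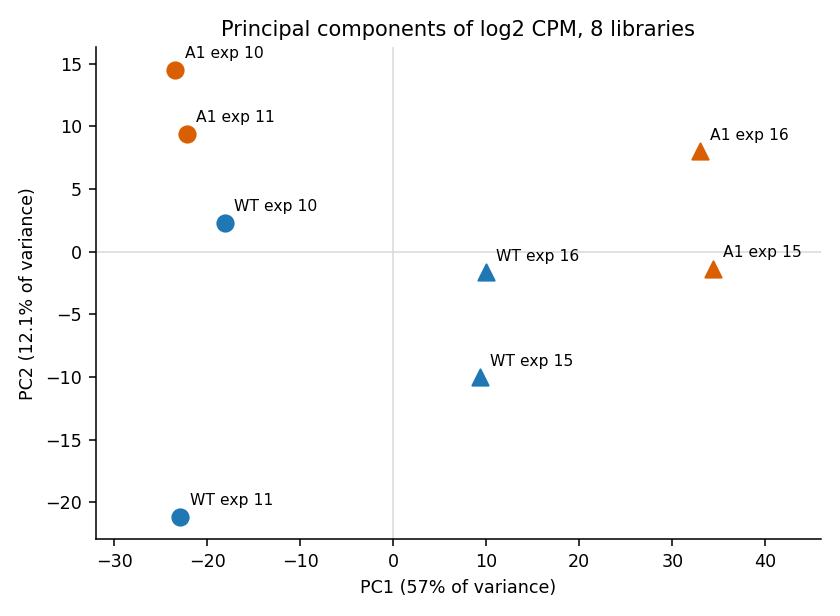
Scores of the 8 libraries on the first 2 principal components of log2 CPM, which held 57.0% and 12.1% of the variance. Circles are experiments 10 and 11, triangles experiments 15 and 16, blue is WT and orange clone A1; the earlier libraries lie between −23.4 and −18.1 on the first component and the later ones between 9.33 and 34.4.

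WT libraries, which carry no edit, showed the shift by themselves. With 2 against 2 libraries, 2035 genes (14.6%) were called in WT, 1080 higher and 955 lower. In clone A1 5199 genes (37.3%) were called, 2719 higher and 2480 lower. Both comparisons called 1766 genes, which is 86.8% of the WT calls and 34.0% of the clone A1 calls, and 1764 of them had the same direction in both. Of the 5556 genes called over both genotypes, 5554 had the same sign in WT and in clone A1, which a test of the shift common to both favours by its construction. Across all 13920 genes the log2 differences of the 2 genotypes correlated at 0.669 (Pearson) and 0.699 (Spearman). This is a description over genes that share experiments but not libraries. The WT count rests on few libraries: it was 838 without the library of experiment 15, 612 without that of experiment 16 and 3713 without that of experiment 10.

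**Figure D2:**
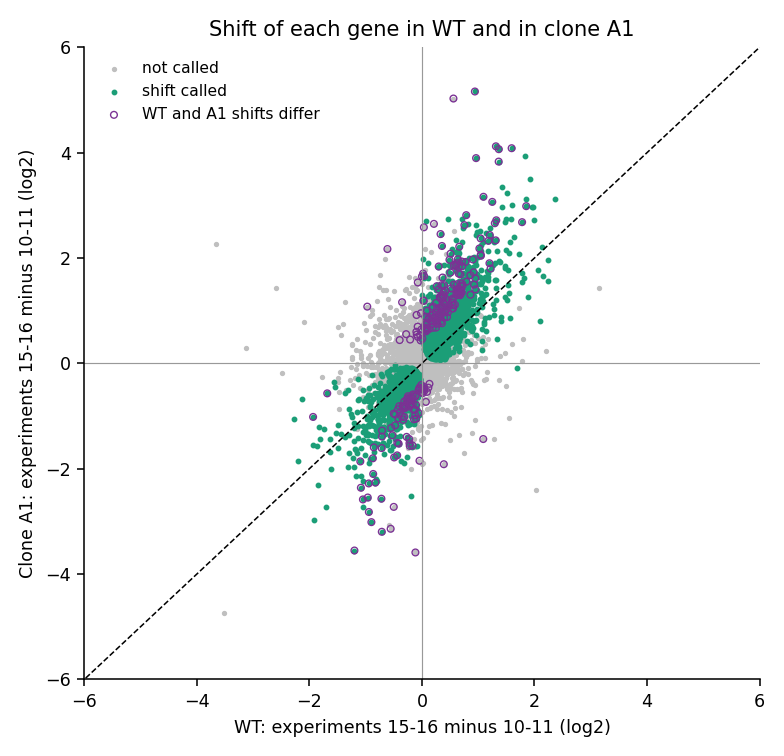
Log2 difference of each of 13920 genes, experiments 15 and 16 minus 10 and 11, in WT (x axis) and clone A1 (y axis). Green points are the 5556 genes called over both genotypes, open purple circles the 266 genes whose shift differed between genotypes, and the dashed line marks equal shifts; called genes lie in the lower left and upper right, mostly on the clone A1 side of the line.

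The size of the shift was larger in clone A1. Among the called genes the median absolute log2 difference was 0.255 in WT and 0.41 in clone A1, and 82.8% of them had the larger value in clone A1. The difference between the genotypes was itself called for 266 genes (1.91% of all genes), and 264 of these had the larger absolute shift in clone A1. In 29 of the 266 the signs in WT and clone A1 were opposite. That count rested on single libraries, since it lay between 70 and 1163 when each of the 8 libraries in turn was left out, and it was 848 once libraries of 1 experiment formed a replicate block. Without WT of experiment 10, 11, 15 or 16 it was 1163, 559, 112 or 99, and without clone A1 of experiment 10, 11, 15 or 16 it was 70, 90, 72 or 109. Only EGR1 and FOS of the 266 moved further in WT than in clone A1.

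Among genes with a mean of at least 5 CPM, the same sign in both genotypes and no overlap between pairs, the largest rises were led by COL2A1, BARX1 and RASGEF1A. COL2A1, the collagen of cartilage, was at 4.29 and 6.04 CPM in WT and 2.96 and 4.18 CPM in clone A1 of experiments 10 and 11, and at 19.8 and 21.2 CPM in WT and 23.1 and 23.6 CPM in clone A1 of experiments 15 and 16. Its log2 difference was 2.34 ± 0.16 (SE, adjusted p = 4.92e-06), and every later library lay above every earlier one, as the rule for naming required. BARX1, a homeobox factor of stomach and jaw development, had 2.71, 2.37, 2.20 and 2.35 CPM in the earlier and 9.63, 7.86, 15.4 and 13.7 CPM in the later libraries (WT first, then clone A1), a log2 difference of 2.23 ± 0.17. For LRP2, the endocytic receptor megalin, the levels were 9.07, 7.36, 8.06 and 8.16 CPM before and 20.6, 20.1, 40.9 and 40.8 CPM after, a log2 difference of 1.83 ± 0.19. In COL2A1, BARX1 and LRP2 the later WT libraries sat between the earlier libraries and the later clone A1 ones.

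HES5, a repressor switched on by Notch receptors, rose by 1.96 ± 0.29, with 9.89 and 8.61 CPM in WT and 5.37 and 5.59 CPM in clone A1 before, and 22.6 and 22.7 CPM in WT and 36.5 and 32.7 CPM in clone A1 after. Genotype order turned around in this gene, with WT above clone A1 in the earlier pair and below it in the later pair. The remaining genes of the rise were TNFAIP2 (1.83), a gene induced by tumour necrosis factor, RASGEF1A (2.10), an exchange factor for Ras proteins, LRRC7 (1.84), a scaffold of synapses, GSAP (1.75), which activates gamma-secretase, TMEM100 (1.73), NOVA2 (1.72), a neural splicing factor, and PDGFRA (1.65), a receptor for platelet-derived growth factor. TPTEP2-CSNK1E (1.74) is a readthrough that shares sequence with CSNK1E, so its reads cannot be assigned with certainty. NOVA2 and PDGFRA lie in regions that shifted as a whole, described below. With the median of each 20 Mb region taken out NOVA2 was at 1.91 and PDGFRA at 1.22.

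**Figure D3:**
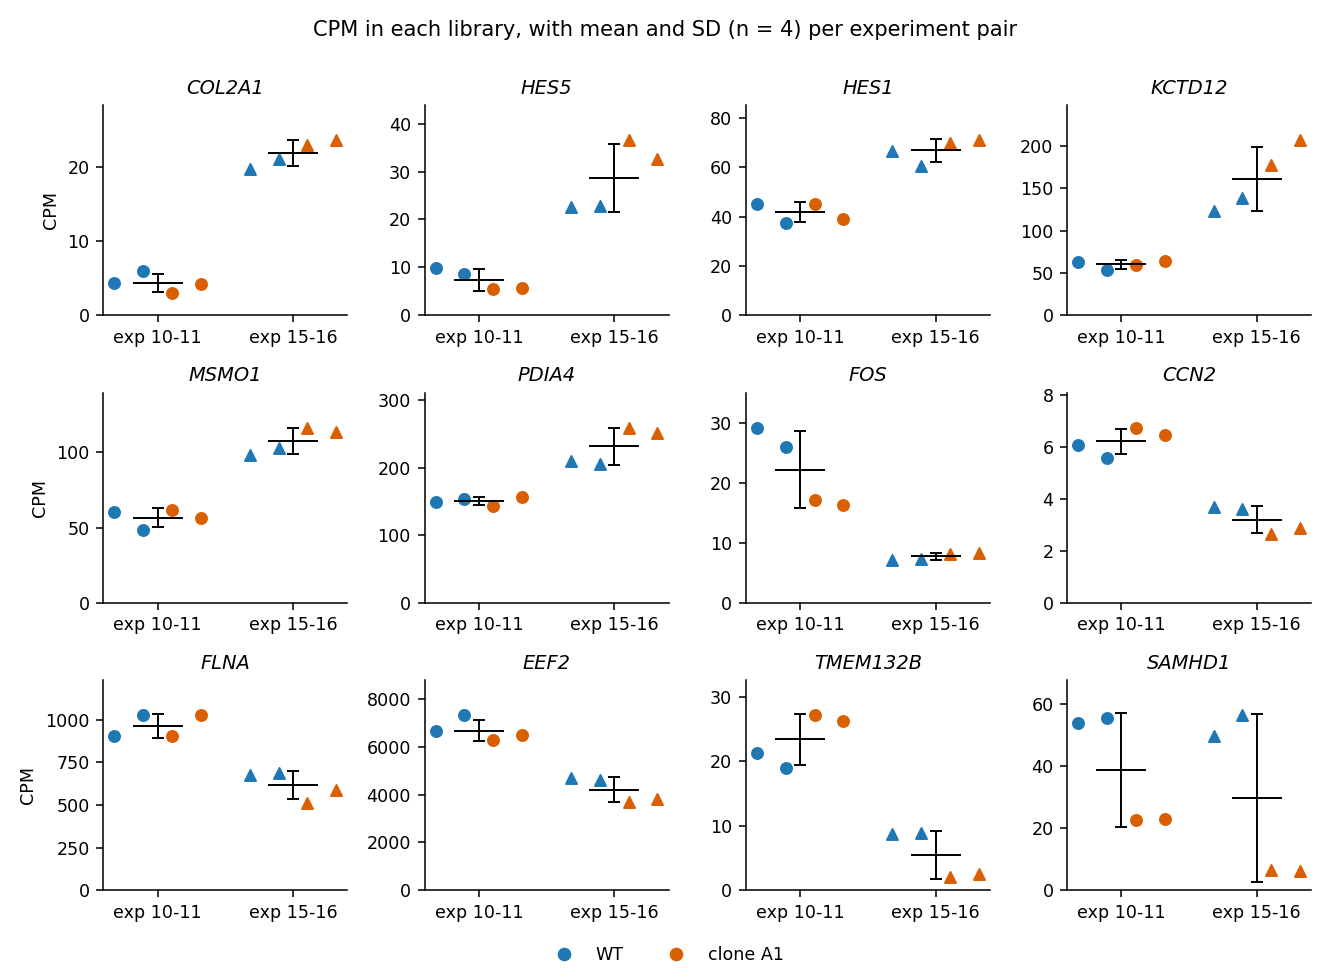
CPM (linear axes from 0) of 12 genes in each library, circles for experiments 10 and 11, triangles for experiments 15 and 16, blue for WT and orange for clone A1, with the mean and SD of the 4 libraries of each pair. In 11 of the genes the later libraries lie wholly above or below the earlier ones; SAMHD1 is the exception, at 49.8 to 56.4 CPM in all WT libraries and 6.15 to 23 CPM in clone A1.

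The largest falls by the same rule were led by TMEM132B, ESRP2 and ZNF700. TMEM132B, a membrane protein of neurons, was at 21.2 and 18.9 CPM in WT and 27.1 and 26.3 CPM in clone A1 before, and at 8.67 and 8.79 CPM in WT and 2.01 and 2.52 CPM in clone A1 after, so it fell by 2.23 ± 0.52 on the log2 scale (adjusted p = 0.0211). ESRP2, an epithelial splicing regulator, had 13, 10.6, 12.8 and 13.4 CPM in the earlier and 6.76, 5.91, 1.83 and 1.40 CPM in the later libraries (log2 difference −1.82 ± 0.45). GNAO1, a G protein subunit of the nervous system, and GRIA3, a glutamate receptor subunit, changed by −1.69 and −1.55, and PAX2, a kidney and urogenital factor, by −1.48. In each of these genes the later WT libraries lay between the earlier libraries and the later clone A1 ones. COL3A1, a fibrillar collagen of stroma, changed by −1.42, the metalloproteinase ADAMTS7 by −1.46, YJEFN3 by −1.40 and the zinc finger gene ZNF700 by −1.78. ADAMTS7, YJEFN3 and ZNF700 lie in shifted regions and were at −1.27, −1.16 and −1.55 with regional medians taken out. FOSB and FOS, which complete the group, are immediate early genes and are described with their own list.

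Of 22 measured genes that respond to YAP and SRF 14 were lower and 0 higher, against 19.5% and 20.4% of all genes, and their median was −0.264 against 0.007. Immediate early genes and AP-1 subunits had 13 of 30 lower and 4 higher, with a median of −0.18. The proximal promoters of 3 of these genes are shown because they hold the sites of the factors that define the lists. CCN2 encodes a matrix signalling protein and is a standard YAP target, EGR1 an immediate early transcription factor and FLNA the actin crosslinker filamin A. EGR1 was picked after its values were seen. Each sequence is the 250 bases before the RefSeq transcript start (GRCh38.p14), read 5′ to 3′ on the gene's strand, with capitals for GGAATG or CATTCC (the TEAD site on either strand) in CCN2 and for the CArG box, the SRF site, in EGR1 and FLNA.
CCN2, minus strand, chr6:131951373-131951622: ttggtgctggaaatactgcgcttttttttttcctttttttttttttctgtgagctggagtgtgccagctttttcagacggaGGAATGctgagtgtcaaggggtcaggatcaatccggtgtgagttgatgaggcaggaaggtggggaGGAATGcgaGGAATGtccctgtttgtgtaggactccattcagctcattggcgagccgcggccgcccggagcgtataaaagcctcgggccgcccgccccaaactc
EGR1, plus strand, chr5:138465229-138465478: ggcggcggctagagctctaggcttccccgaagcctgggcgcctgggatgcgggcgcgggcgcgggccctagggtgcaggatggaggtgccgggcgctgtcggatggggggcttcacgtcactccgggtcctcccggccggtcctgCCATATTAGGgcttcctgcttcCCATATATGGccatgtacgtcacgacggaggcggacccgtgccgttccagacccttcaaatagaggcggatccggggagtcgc
FLNA, minus strand, chrX:154374635-154374884: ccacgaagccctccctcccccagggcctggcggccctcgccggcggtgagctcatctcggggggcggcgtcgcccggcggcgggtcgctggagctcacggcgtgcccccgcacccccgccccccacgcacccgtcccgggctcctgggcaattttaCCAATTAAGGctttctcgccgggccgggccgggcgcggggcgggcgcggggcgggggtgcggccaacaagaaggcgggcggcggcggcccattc
CCN2 held 3 TEAD sites that start 169, 104 and 95 bases before the transcript start, EGR1 2 CArG boxes at 105 and 83 bases and FLNA 1 at 94 bases. Of 11366 tested genes with a promoter in the table, 13.1% held a TEAD site and 1.51% a CArG box in the same window. Of the YAP and SRF list, 16 genes had a promoter there, and 6 of them held a TEAD site and 4 a CArG box. Of the 22 immediate early genes with a promoter, 2 held a TEAD site and 3 a CArG box. A match describes letters in the window and not binding.

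CCN2, with the 3 TEAD sites, was at 6.07 and 5.59 CPM in WT and 6.74 and 6.46 CPM in clone A1 before, and at 3.68 and 3.61 CPM in WT and 2.63 and 2.87 CPM in clone A1 after (log2 difference −0.96 ± 0.14, adjusted p = 1.28e-04). FLNA went from 905, 1027, 906 and 1027 CPM to 675, 687, 514 and 591 CPM, in the order WT, WT, clone A1, clone A1 (−0.65 ± 0.07). In both genes the pairs did not overlap and the genotypes of the earlier pair were alike. CCN1, the sister gene of CCN2, changed by −0.50 ± 0.06 and the muscle-type tropomyosin TPM1 by −0.48 ± 0.06. Smooth muscle actin ACTA2 (−0.65), calponin CNN2 (−0.95), vinculin VCL (−0.26), the LIM protein AJUBA (−0.36), the angiomotin AMOTL1 (−0.27) and TEAD1 itself (−0.28) were also lower. ANKRD1 changed by −1.45 but lay at 0.184 to 1.96 CPM. With the median of each 20 Mb region taken out, 14 members were lower and 0 higher, with TPM1 at −0.278 and ACTA2 at −0.411.

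FOS was at 29.2 and 26.1 CPM in WT and 17.1 and 16.4 CPM in clone A1 before, and at 7.11, 7.33, 8.13 and 8.35 CPM after (log2 difference −1.48 ± 0.16). EGR1 went from 76.7 and 84.1 CPM in WT and 45.5 and 63.6 CPM in clone A1 to 23.9 and 26.1 CPM in WT and 37.1 and 36.3 CPM in clone A1 (−1.12 ± 0.26, adjusted p = 0.0183). WT moved further than clone A1, by −1.93 against −1.02 in FOS and by −1.68 against −0.57 in EGR1, and these differences between genotypes were called (edgeR adjusted p = 0.00399 and 0.00405). FOSB changed by −1.71 ± 0.30, IER2 by −0.68 ± 0.07, the vessel-protective factor KLF2 by −1.01 ± 0.15, JUNB by −0.56 and SRF, the factor that drives many of these genes, by −0.33 ± 0.05. With regional medians taken out FOSB was at −1.42, KLF2 at −0.764, IER2 at −0.435 and JUNB at −0.317. The 4 members that rose were the phosphatase DUSP5 (0.53), the AP-1 partner FOSL2 (0.35), MAFF (0.48) and EGR3 (0.48).

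Chaperones of the endoplasmic reticulum had calls mostly in the other direction. Of 23 genes of the unfolded protein response 13 were higher and 1 lower, with a median of 0.174. PDIA4, a disulfide isomerase, was at 149, 153, 144 and 156 CPM in the earlier and 211, 206, 259 and 251 CPM in the later libraries, a log2 difference of 0.62 ± 0.06 (adjusted p = 2.36e-05). DNAJB9, a cochaperone of BiP, went from 14.2, 10.9, 12.6 and 13.5 CPM to 18.8, 19.96, 24.9 and 25.3 CPM (0.79 ± 0.09), and the secreted stress factor MANF rose by 0.46 ± 0.06. All 13 risers had no overlap between pairs, and with regional medians taken out 12 were higher and 0 lower. The translocon subunit SEC61B (0.30), the death factor DDIT3 (0.43), the transcription factor XBP1 (0.31), HERPUD1 (0.31) and BiP itself, HSPA5 (0.17), also rose, while the lectin chaperone calreticulin, CALR, was lower (−0.16). PDIA4, HSPA5 and CALR lie in shifted regions, described below, and were at 0.325, −0.101 and 0.084 with regional medians taken out. The wider secretory pathway had 13 of 53 higher (24.5%, near the 20.4% of all genes) and 7 lower. Its strongest members were the signal peptidase subunits SPCS3 (0.58) and SPCS2 (0.39), the translocon subunit SEC61G (0.31) and OSTC (0.62), of which SPCS3 and OSTC lie on chromosome 4 and were at 0.031 and 0.171 with regional medians taken out.

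HIF target genes had 11 of 25 members higher (44%) and 2 lower (8%), against 20.4% and 19.5% of all genes, with a median of 0.222. The list median was smaller in WT (0.087) than in clone A1 (0.309), though a difference between the genotypes was called for 0 members. MXI1 and INSIG2, given below, were not called in WT alone. BNIP3, a mitophagy receptor, was at 202 and 137 CPM in WT and 185 and 179 CPM in clone A1 before and at 237, 243, 340 and 330 CPM after (0.69 ± 0.11, adjusted p = 0.00102). MXI1, a MYC antagonist, had 95.6, 66.8, 92.5 and 83.8 CPM before and 107, 111, 137 and 128 CPM after (0.51 ± 0.09). WT of experiment 11 was the lowest of the 4 earlier libraries in both genes. INSIG2, a brake on sterol synthesis, rose by 0.46 ± 0.09, and ANKRD37 (0.81), the collagen hydroxylase P4HA1 (0.40), ERO1A (0.37), AK4 (0.35), BNIP3L (0.35) and VEGFA (0.18) were called too. The demethylase KDM4B (−0.29) and the oxygen sensor EGLN1 (−0.26) were lower, both in regions whose medians were also lower, and with regional medians taken out they were at −0.053 and 0.079, BNIP3 at 0.384 and ANKRD37 at 0.381, and the list had 11 higher and 0 lower. Of 20 glycolysis genes 7 were higher (35%) and 3 lower (15%): triosephosphate isomerase TPI1 (0.30), ALDOA (0.33), PGK1 (0.23) and ENO2 (0.86) rose, and GPI (−0.45), PKM (−0.27) and HK1 (−0.19) fell. Without the regional medians ALDOA was at −0.025, GPI at −0.23 and PKM at −0.069.

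**Figure D4:**
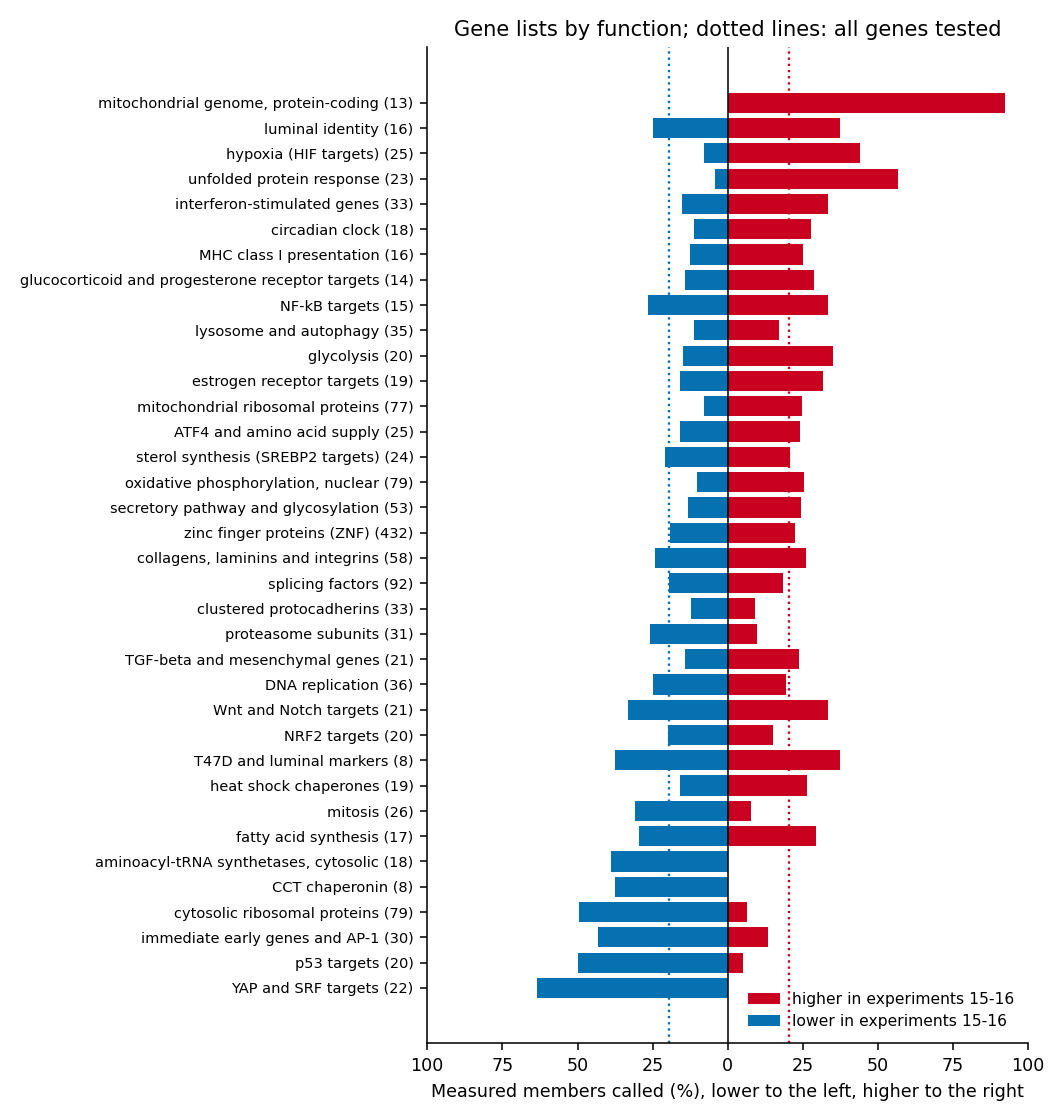
Share of the measured members of each gene list (number in brackets) called higher (red, to the right) or lower (blue, to the left) in experiments 15 and 16, ordered by the median shift, for lists with at least 8 members measured. Dotted lines mark the shares over all genes tested, 20.4% higher and 19.5% lower; the mitochondrial genome (92.3% higher) and the YAP and SRF targets (63.6% lower) stand at the ends.

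Protein-coding genes of the mitochondrial genome rose in 12 of 13 cases, with a median of 0.445, beside the rise in their share of the counts given above. ND5, a subunit of respiratory complex I, was at 3210, 3538, 3360 and 3194 CPM before and 5070, 4622, 7541 and 5523 CPM after (0.76 ± 0.11, adjusted p = 3.96e-04). ND4 went from 10404, 10862, 11148 and 10737 CPM to 16186, 14339, 21996 and 16250 CPM (0.66 ± 0.09). Clone A1 of experiment 15 was the highest library in both. Among the nuclear subunits of oxidative phosphorylation 20 of 79 were higher (25.3%, near the 20.4% of all genes) and 8 lower, with a median of 0.028. ATP5MC1, a ring subunit of ATP synthase, rose by 0.57 ± 0.07 and NDUFA5 by 0.48 ± 0.06, while COX5A changed by −0.32. Mitochondrial ribosomal proteins had 19 of 77 higher (24.7%, near the same share) and 6 lower, among them MRPS2 (0.42) and MRPL43 (−0.37). Once regional medians were removed NDUFA5 was at 0.172, COX5A at −0.124 and MRPS2 at 0.145.

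Cytosolic ribosomal protein genes were lower in 39 of 79 cases and higher in 5, against 19.5% of all genes lower and 20.4% higher, with a median of −0.15. RPLP0, of the ribosomal stalk, was at 2627, 2621, 2535 and 2610 CPM before and 2073, 1995, 1824 and 1701 CPM after (−0.45 ± 0.06, adjusted p = 5.46e-05). RPL13A had 3302, 3282, 2946 and 3049 CPM before and 2652, 2487, 2047 and 1888 CPM after (−0.48 ± 0.06). The elongation factor EEF2 went from 6646, 7318, 6268 and 6484 CPM to 4688, 4608, 3676 and 3809 CPM (−0.68 ± 0.06). In these 3 genes no later library reached an earlier one. Where a ribosomal gene lies went with its shift: 11 of 13 on chromosome 19 were lower with a median of −0.419, all 3 on chromosome 4 were higher with a median of 0.424, and 28 of the 66 outside chromosome 19 were lower. With regional medians taken out 36 were lower and 0 higher, with RPL13A at −0.27, and EEF2 was at −0.434. Ribosomal proteins have many near-identical pseudogenes, so reads of single members may be shared. Cytosolic aminoacyl-tRNA synthetases, which charge tRNAs, had 7 of 18 lower and 0 higher, led by QARS1 with 267, 267, 259 and 256 CPM before and 195, 197, 181 and 177 CPM after (−0.48 ± 0.05), but after removal of regional medians 4 were lower, near the 16.6% of all genes lower in that fit. The chaperonin CCT had 3 of 8 lower (CCT5 −0.19, TCP1 −0.23, CCT3 −0.13) and 0 higher. The 3 were not called in WT alone (−0.12, −0.05 and −0.06) and changed by −0.26, −0.40 and −0.21 in clone A1, and no difference between the genotypes was called for any of them. After removal of regional medians CCT5 (−0.134) and CCT3 (−0.098) lost the call, and 2 members of the list were lower.

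Targets of p53 were lower in 10 of 20 cases and higher in 1, with a median of −0.228. AEN, an apoptotic nuclease, changed by −0.57 ± 0.07, the ferredoxin reductase FDXR by −0.49 ± 0.09, the repair factors XPC and POLH by −0.30 and −0.29, and BAX by −0.31, while SPATA18 rose (0.29). The members most used as readouts of p53 did not pass the test, with log2 differences of −0.21 ± 0.17 in CDKN1A and 0.02 ± 0.05 in MDM2. With regional medians taken out 7 were lower and 0 higher, with AEN at −0.299, BAX at −0.087 and SPATA18 at −0.125. Mitosis genes had 8 of 26 lower and 2 higher, with a median of −0.045 in WT and −0.173 in clone A1. The kinesins KIF20A and KIF23 changed by −0.46 ± 0.06 and −0.56 ± 0.08 and the centromere protein CENPF by −0.52 ± 0.08. The list had 11 lower and 0 higher with regional medians taken out, and KIF23 was then at −0.36, CENPF at −0.277 and CENPE (0.38), on chromosome 4, at −0.069. DNA replication genes had 7 of 36 higher (19.4%) and 9 lower (25%), near the 20.4% and 19.5% of all genes. Its members with the smallest p were LIG1 (−0.50), MCM7 (−0.38), CHAF1A (−0.39) and CDT1 (−0.31), and LIG1 and CHAF1A were at −0.291 and −0.149 with regional medians taken out.

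In the sterol list 5 of 24 were higher (20.8%) and 5 lower (20.8%), the shares over all genes being 20.4% and 19.5%. MSMO1, a demethylating oxidase, was at 60.5, 48.2, 61.6 and 56.3 CPM before and 98, 103, 116 and 114 CPM after (0.93 ± 0.07, adjusted p = 3.22e-06), and INSIG1 changed by 0.84 ± 0.17 and SC5D by 0.34 ± 0.06. In the fatty acid list 5 of 17 were higher and 5 lower, or 3 higher and 7 lower after removal of regional medians, with the elongase ELOVL6 (0.59) and desaturase FADS2 (0.41) higher and the synthase FASN (−0.53) and ACLY (−0.30) lower. Without the regional medians MSMO1 was at 0.384 and ELOVL6 at 0.135. Genes that ATF4 drives for amino acid supply had 6 of 25 higher and 4 lower, among them the cystine carrier SLC7A11 (0.82), GPT2 (0.42) and SLC7A5 (−0.29). NRF2 targets had 3 of 20 higher and 4 lower, with thioredoxin TXN at 0.37 and the pentose phosphate enzymes PGD and TKT at −0.29 and −0.31. Heat shock chaperones had 5 of 19 higher and 3 lower, with HSPA8 at −0.28 and the cochaperone BAG3 at 0.27. HSPA1A and HSPA1B are near-identical copies and are uncertain one by one. The proteasome had 3 of 31 higher and 8 lower (PSMD12 0.51, PSMC4 −0.46), splicing factors 17 of 92 higher (18.5%) and 18 lower (19.6%), near the shares over all genes (HNRNPD 0.48, HNRNPUL1 −0.59), lysosome and autophagy 6 of 35 higher and 4 lower (NPC2 −0.40, MAP1LC3B 0.34) and metallothioneins 1 of 3 higher (MT2A 0.35). After removal of regional medians SLC7A11 was at 0.359, HNRNPD at 0.038, HNRNPUL1 at −0.378 and PSMC4 at −0.244.

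The counts of the signalling and identity lists stand against 20.4% of all genes higher and 19.5% lower. Of 21 Wnt and Notch targets 7 were higher and 7 lower, or 4 higher and 8 lower after removal of regional medians. HES1, a Notch-driven repressor, was at 45.2, 37.5, 45.3 and 39.2 CPM before and 66.7, 60.4, 69.8 and 71.0 CPM after (0.68 ± 0.07, adjusted p = 2.59e-05), and the Notch feedback gene NRARP rose by 0.77 ± 0.09, while HEYL (−0.60) and the Wnt inhibitor NKD1 (−0.43) were lower. TGF-beta and mesenchymal genes had 5 of 21 higher and 3 lower, among them TWIST1 (0.44), TGFBR1 (0.37), SMAD3 (−0.40) and SMAD6 (−0.63). Clock genes had 5 of 18 higher and 2 lower, with CIART (0.73), BHLHE41 (0.83), CLOCK (0.47) and PER3 (0.64) higher. Interferon-stimulated genes had 11 of 33 higher and 5 lower: the RNA sensors RIGI (0.59) and IFIH1 (1.73, at 0.218 to 1.54 CPM) and IRF7 (0.87) rose and IFITM1 (−0.61) was lower. The median of the interferon list was 0.046 in WT and 0.291 in clone A1, and IFIH1 and IRF7 were not called in WT alone. NF-kB targets had 5 of 15 higher and 4 lower and 2 higher and 5 lower with regional medians taken out. The members with the smallest p were TNFAIP2 (1.83), RELB (−0.57), NFKB2 (−0.34) and the subunit gene NFKB1 (0.25), which was at −0.203 after that removal. Once regional medians were removed CLOCK was at 0.046, SMAD3 at −0.201, NRARP at 0.497, RELB at −0.353 and NFKB2 at −0.219. MHC class I genes had 4 of 16 higher and 2 lower, with the peptide trimmers ERAP1 (0.63) and ERAP2 (0.73) and HLA-B (0.43) higher and HLA-E (−0.20) lower.

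Of 58 collagens, laminins and integrins 15 were higher (25.9%) and 14 lower (24.1%), near the 20.4% and 19.5% of all genes. LAMA1 rose by 0.72 ± 0.07 and COL5A1 by 0.63 ± 0.07, while COL17A1, of epithelial anchoring junctions, changed by −1.16 ± 0.13. After removal of regional medians COL5A1 was at 0.353. Clustered protocadherins had 3 of 33 higher and 4 lower, most of them at low levels and with near-identical copies. Luminal genes had 6 of 16 higher and 4 lower, with FOXA1 at 0.52 ± 0.08 and KRT18 at −0.38 ± 0.06. The calls in ESR1 (−2.05) and CDH1 (1.05) rest on levels of at most 1.59 and 2.16 CPM. Estrogen receptor targets had 6 of 19 higher and 3 lower (CXCL12 1.58, NRIP1 −0.53) and glucocorticoid and progesterone receptor targets 4 of 14 higher and 2 lower (CDKN1C 1.02, KLF9 −0.20). Of the 7 markers of other cell types, COL1A1 (0.39) was higher and COL3A1 (−1.42) lower. Of 8 luminal markers used for the check of the label, 3 were higher and 3 lower. Nuclear long non-coding RNAs were looked for as a list of 15, and 0 were among the listed genes.

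The shift also followed position along chromosomes. Of 154 regions of 20 Mb with at least 20 genes, 24 had a median log2 difference beyond 0.2, 16 of them higher and 8 lower, and all 24 had the same sign and a larger size in clone A1 than in WT. Regional medians of WT and clone A1 correlated at 0.921 over the 154 regions, a description over regions that share experiments. These 24 regions held 19.9% of the genes and 31.8% of the calls. Within them 63.8% of genes were called, against 34.0% elsewhere, so most calls lay outside. The shift also moved with transcript composition, with a Spearman correlation across 13699 genes of −0.189 with GC content and −0.114 with length, and median log2 differences of 0.07 for transcripts of at most 40.8% GC and −0.058 for those of at least 58.9%, a description across genes whose part in the results was not tested.

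The strongest was on chromosome 13. From PCDH9 to SPRY2 (GRCh38, chr13:66302834-80341126) all 23 listed genes in a row were higher, by 0.42 to 1.55 with a median of 1.18, and by medians of 0.93 in WT and 1.49 in clone A1. The neighbours on either side, PCDH20 (−0.07) and SLITRK5 (0.15), lay near 0. KCTD12, a subunit of GABA-B receptors, was at 62.9, 53, 59.5 and 64.3 CPM before and 123, 138, 177 and 207 CPM after (1.40 ± 0.10), and DIS3, an exosome ribonuclease, at 63.5, 58.1, 67.8 and 64.5 CPM before and 105, 116, 161 and 165 CPM after (1.08 ± 0.08). POU4F1, a sensory neuron factor, KLF5, an epithelial factor, and EDNRB, an endothelin receptor, differ in function and rose by 1.55, 1.32 and 1.25. In each of them the later WT libraries lay between the earlier libraries and the later clone A1 ones. Taking out the median of this region, which by construction removes what its genes share, left KCTD12 at 0.218 and DIS3 at −0.103.

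Chromosome 4 beyond 20 Mb had 347 of 419 genes higher and 2 lower, with a median of 0.453 (WT 0.397, clone A1 0.504), while its first 20 Mb had a median of 0.039. The boundary of 20 Mb is that of the regions, and the running median along the chromosome rose before it. HNRNPD, CLOCK, MSMO1, CENPE, RPL9, RPS3A and SPCS3 are among these genes, so lists with members there hold this difference. Chromosome 19 had 480 of 970 genes lower with a median of −0.228, chromosome 1 from 180 to 240 Mb 151 of 263 with −0.271 and chromosome 15 beyond 60 Mb 133 of 254 with −0.229. Higher blocks were the first 40 Mb of chromosome 16 (197 of 343, median 0.291), chromosome 7 beyond 120 Mb (114 of 171, 0.313), chromosome 9 beyond 120 Mb (123 of 219, 0.288) and chromosome 10 beyond 120 Mb (42 of 58, 0.326), and chromosome 10 from 80 to 100 Mb was lower (49 of 101, −0.208). On chromosome 4 beyond 20 Mb the median per library, against the mean of the earlier libraries, was 0.050, −0.060, 0.010 and 0.005 in the earlier and 0.348, 0.411, 0.497 and 0.539 in the later libraries. On chromosome 19 it was −0.025, 0.131, −0.069 and −0.034 in the earlier and −0.098, −0.169, −0.296 and −0.335 in the later libraries, with WT of experiment 11 highest, and on the first 40 Mb of chromosome 16 that library, at 0.118, was the highest of the 4 earlier ones too. Zinc finger genes, of which 244 of 432 lay in the 24 regions, had 96 higher (22.2%) and 84 lower (19.4%), near the shares over all genes, and 114 higher and 46 lower with regional medians taken out, where 16.4% of all genes were higher and 16.6% lower.

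**Figure D5:**
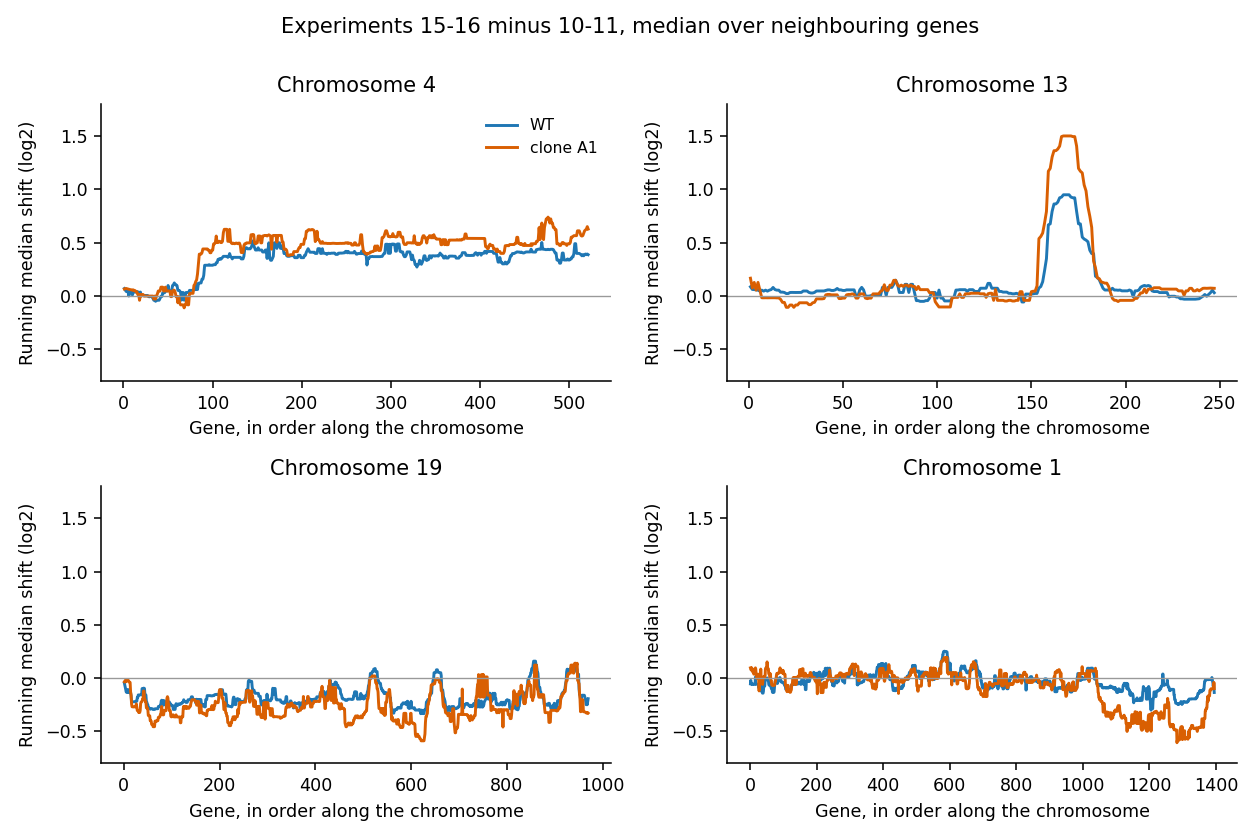
Running median over 21 neighbouring genes of the log2 difference (experiments 15 and 16 minus 10 and 11) along chromosomes 4, 13, 19 and 1 in WT (blue) and clone A1 (orange), with genes in order along the x axis. Chromosome 4 steps up within its first 102 genes (the first 20 Mb), chromosome 13 has a narrow peak over the run from PCDH9 to SPRY2, chromosome 19 lies mostly below 0 and the end of chromosome 1 falls, each in both genotypes and further in clone A1.

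Clone A2 offers libraries that the comparison did not use. In the 4276 genes that were called, moved the same way in both genotypes and did not overlap, both clone A2 libraries lay on the later side of the midpoint between pairs in 3650 genes (85.4%), on the earlier side in 210 and on both sides in 416. Clone A2 has no earlier libraries, so this gives its position and not a shift. The 4276 genes were chosen by the later libraries, among them those of clone A1. In 75.7% of them the mean of clone A2 lay beyond that of the later WT libraries, and knock-out and experiment cannot be told apart in clone A2. Its KCTD12 levels of 201 and 218 CPM and COL2A1 levels of 25.5 and 22.7 CPM were those of the later libraries, and its TMEM132B (0.875 and 0.800 CPM) and ESRP2 (0.0673 and 0.312 CPM) lay below all 8. All 24 shifted regions had the same sign in clone A2 against the earlier libraries, with 1.46 in the chromosome 13 region and 0.516 on chromosome 4 beyond 20 Mb. In the lists, both clone A2 libraries were on the later side in 38 of 38 called and non-overlapping ribosomal protein genes, 11 of 13 of the unfolded protein response and 9 of 12 YAP and SRF targets, but in 2 of 11 genes of the mitochondrial genome and 3 of 7 aminoacyl-tRNA synthetases.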

How the data were processed

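Stranded mRNA libraries of spheroids were sequenced by the authors, and reads were aligned to GRCh38. The processing notes name HISAT2 and StringTie without versions, and the labels and the methods name different RNA extraction kits. The deposited values are raw read counts per NCBI gene identifier for 13920 genes, with no gene at 0 in any library. The methods describe removal of genes with a count of 0 in a library. A gene silent in any library, clone A2 included, is therefore not listed, and an unlisted gene cannot be read as absent from all. Whether counting used strand is not given in the sources used here. All 10 columns matched labels.

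Counts of 8 libraries were tested in R 4.3.3 with edgeR 4.0.16 (TMM, robust quasi-likelihood test, genotype as a block), with Benjamini-Hochberg adjustment across the 13920 genes and a threshold of 0.05. WT, clone A1 and the difference of their shifts were contrasts in a fit of 4 groups. CPM used TMM factors over all 10 libraries, and ± is SE of the log2 difference. Alternatives used DESeq2 1.42.0, limma 3.58.1, RLE normalization, filters, libraries left out, removal of regional medians and a replicate block by experiment number. The labels number libraries by experiment: after the means of genotype and experiment pair were removed, WT and clone A1 of the same experiment correlated at 0.0846 and 0.134. In the replicate block alternative the correlation within experiments was 0.0556 with genotype as a block and 0.315 in the fit of 4 groups. The gene lists covered oxygen, energy and lipid metabolism, stress responses, growth, translation, signalling, identity, matrix and markers. Genes were named as SAMHD1, the 12 largest called changes in each direction (mean of at least 5 CPM, same sign in both genotypes, no overlap), up to 4 called members with the smallest p in each list and up to 3 called genes with the highest level in each shifted region, and any other gene was named after its values were seen. Some genes that the rule names are not reported here. Lists, rule and comparison were chosen with earlier results of these data known. Symbols and positions came from RefSeq (GRCh38.p14) for 13885 genes. On simulated counts with 200 changed genes among 13920, edgeR found 177 with 8 false calls. Those changes were of 0.5 or 1 on the log2 scale and alike in both genotypes. Genes were drawn independently, without effects of genotype or experiment. The data held many more changes, often smaller and shared along chromosomes, so these figures do not give the error rate of the calls above. No pair of libraries was the same within sampling noise, since chi-square over its degrees of freedom was 6.74 to 150.0. Depth limits low genes: 459 had a lowest count under 10.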

Additional observations from a re-analysis of the deposited data

Results flagged for a closer look

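The shift differed between WT and clone A1 for 266 genes by a test of the difference itself (interaction contrast, edgeR adjusted p). Among the genes named in the report, the shift in clone A1 minus that in WT was −1.81 in SAMHD1, 0.90 in BARX1, 1.82 in RASGEF1A, 1.37 in HES5, 1.23 in LRRC7, 1.02 in LRP2, 1.15 in GSAP and 1.33 in NOVA2 on the log2 scale, so the risers rose further in clone A1. It was −2.35 in TMEM132B, −2.12 in ESRP2, −1.54 in ZNF700, −1.58 in GNAO1, −1.85 in GRIA3, −1.44 in PAX2, −0.77 in ADAMTS7, −1.23 in COL3A1 and −1.11 in CNN2, which fell further in clone A1, and 0.92 in FOS and 1.11 in EGR1, which fell further in WT. On chromosome 13 it was 0.44 in DIS3, 0.70 in POU4F1 and 0.62 in SPRY2. Among other list members it was 0.86 in SLC7A11, 0.96 in ENO2, −0.41 in CENPF, 1.16 in CXCL12 and 0.48 in HLA-B.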

How the results depend on the processing

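The count of genes that changed between the experiment pairs stayed within 1.5 times of 5556 under 11 of 12 alternatives and all 8 libraries left out in turn (3989 to 5888), and a test against a log2 difference of 0.2 (glmTreat) gave 2200. Without a single library the count was 612 to 3713 in WT, 3487 to 6360 in clone A1 and 70 to 1163 for their difference. For that difference DESeq2 called 409 genes and the replicate block 848 (the cause was not tested), against 266. The replicate block gave 5269 genes for the shift, 1990 in WT and 5164 in clone A1, and summing WT and clone A1 per experiment gave 5241, or 5238 with RLE normalization, an alternative chosen after seeing the data. Removal of regional medians gave 4602, of which 3866 were among the 5556 with the same sign. Of the genes compared it reversed ALDOA (−0.025), CENPE (−0.069), NFKB1 (−0.203), DIS3 (−0.103), RPS3A (−0.015), HSPA5 (−0.101), SPATA18 (−0.125) and PCDH9 (−0.778), which had been higher, and CALR (0.084) and EGLN1 (0.079), which had been lower. Neither MDM2 nor PCDH20 was called, and their signs turned without a clone A1 library (over the libraries left out −0.013 to 0.041 in MDM2 and −0.195 to 0.022 in PCDH20). Over 211 genes (those with values in the text and those named by size or list) there were 4216 combinations of a gene and an alternative, of which 4027 kept direction and call, 170 lost the call, 6 gained it and 13 reversed. Genes named by region but given no value were not compared. Genes of low counts set the limit of depth: 459 had fewer than 10 counts in some library.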
